A study of Oryza sativa with 2 samples.

Results

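The heat shock genes of rice (Oryza sativa) were examined in seedlings treated with jasmonic acid, a hormone that plants make on wounding, set against unexposed seedlings. Members were taken by name. A gene belonged when its symbol or a synonym began with HSP, HSF, SHSP, HSC70, CLPB or BIP, and when at least 1 array feature annotated to that gene alone measured it. This gave 46 genes, read by 49 features, of 15798 genes read by 17839 features. They fell into 14 small heat shock proteins, 5 large chaperones and 18 heat shock factors. The other 9 were caught by the letters BIP although their names are not those of BiP chaperones. The RefSeq list of genes held 65 whose names met the rule, and the 19 with no such feature were not analysed here, among them BIP1, HSP81-2 and the 3 genes named HSP16.9A, HSP16.9B and HSP16.9C.

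Heat shock proteins are chaperones, which keep other proteins from clumping or help them fold. Small heat shock proteins bind unfolding proteins without using ATP, and the large chaperones of the Hsp90, Hsp70 and Hsp100 families refold, mature or disaggregate them with ATP. Heat shock factors are the transcription factors that switch such genes on. Plants have 3 classes: class A factors activate, class B factors lack the usual activating motif and often repress, and class C is less well studied.

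The exposed seedlings received 5 µM jasmonic acid, per the labels, and the unexposed seedlings were healthy plants of 7 days. Both came from MS medium in a growth chamber and gave total RNA. The labels do not settle whether shoots or whole seedlings were used, nor whether exposure itself lasted 7 days. On array 1 exposed RNA carried Cy5 and unexposed RNA Cy3, and on array 2 the dyes were exchanged. The 2 arrays share 1 replicate number, so they were counted as 1 replicate, and no p-value or spread between plants could be had.

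Each array gave 1 log ratio for each of 22575 spots, and all values here are log2. The sources used here do not say which dye or RNA is the numerator, so no value below is called higher or lower in exposed seedlings. The swap mean, which is array 1 minus array 2 divided by 2, served as the measure. The array 1 side means a log2 ratio of 1 or more on array 1 together with −1 or less on array 2, and the array 2 side means the reverse. A positive swap mean points to more RNA in exposed seedlings if Cy5 is the numerator on both arrays, and to less if Cy3 is. If both columns are exposed over unexposed, it measures only dye effects. JAZ8 and JAZ7, repressors of jasmonate responses whose genes jasmonate is known to induce, give the side of a known response. JAZ8 had log2 ratios of 1.82 on array 1 and −2.32 on array 2, and JAZ7 had 1.03 and −1.70. Both lay on the array 1 side.

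The medians over all spots were −0.30 on array 1 and −0.32 on array 2, so a typical gene lies below 1 on both arrays and the swap mean cancels this offset. Spot brightness, the log2 geometric mean of the whole numbers behind each ratio, is a lower bound on signal, and the median gene had 5.47. The 7 leaf markers, without genes caught by RCAR or RCABP names, had a median of 12.1 and a range from 7.13 to 14.7. The 7 seed markers had a median of 3.30. The 7 root markers had one of 5.28 and reached 8.98, so the leaf and root ranges overlapped. The pairing of spots with genes uses a rearranged grid that no source states.

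No member gene passed 2-fold on either side. The count was 0 of 46 on the array 1 side, where 0.5% of all genes lay, and 0 of 46 on the array 2 side, where 0.165% lay. Shares this low leave the members near the background. Of the 46, 1 gene, HSFC1A, had ratios of 0.5 or less on both arrays, against 3.85% of all genes, and none was at least 2-fold higher on both, against 0%. At 1.5-fold the members on the sides were again 0, against 1.4% of all genes for array 1 and 0.513% for array 2, and 4 were lower on both arrays, HSFC1A, HSFA6B, BIPP2C2 and bip104, against 12% of all genes. Ratios below 1 on both arrays, at any size, were seen in 29 members, and in 66.7% of all genes. A swap mean of 0.5 or more was reached by 2 members, HSFB1 and HSFC1B, where 4.08% of all genes reached it, and −0.5 or less by 0, where 1.93% did. The swap mean was under 0.25 in size in 31 of 46 members, a range that held 78.3% of all genes. Small values were more often on one side of 0 than over all genes: 35 of the 46 members had a swap mean above 0, against 51.7% of all genes. This slant was not tested. The median over members was 0.09, against 0.01 over all genes, where the spread of swap means (scaled median absolute deviation) was 0.17.

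**Figure D1:**
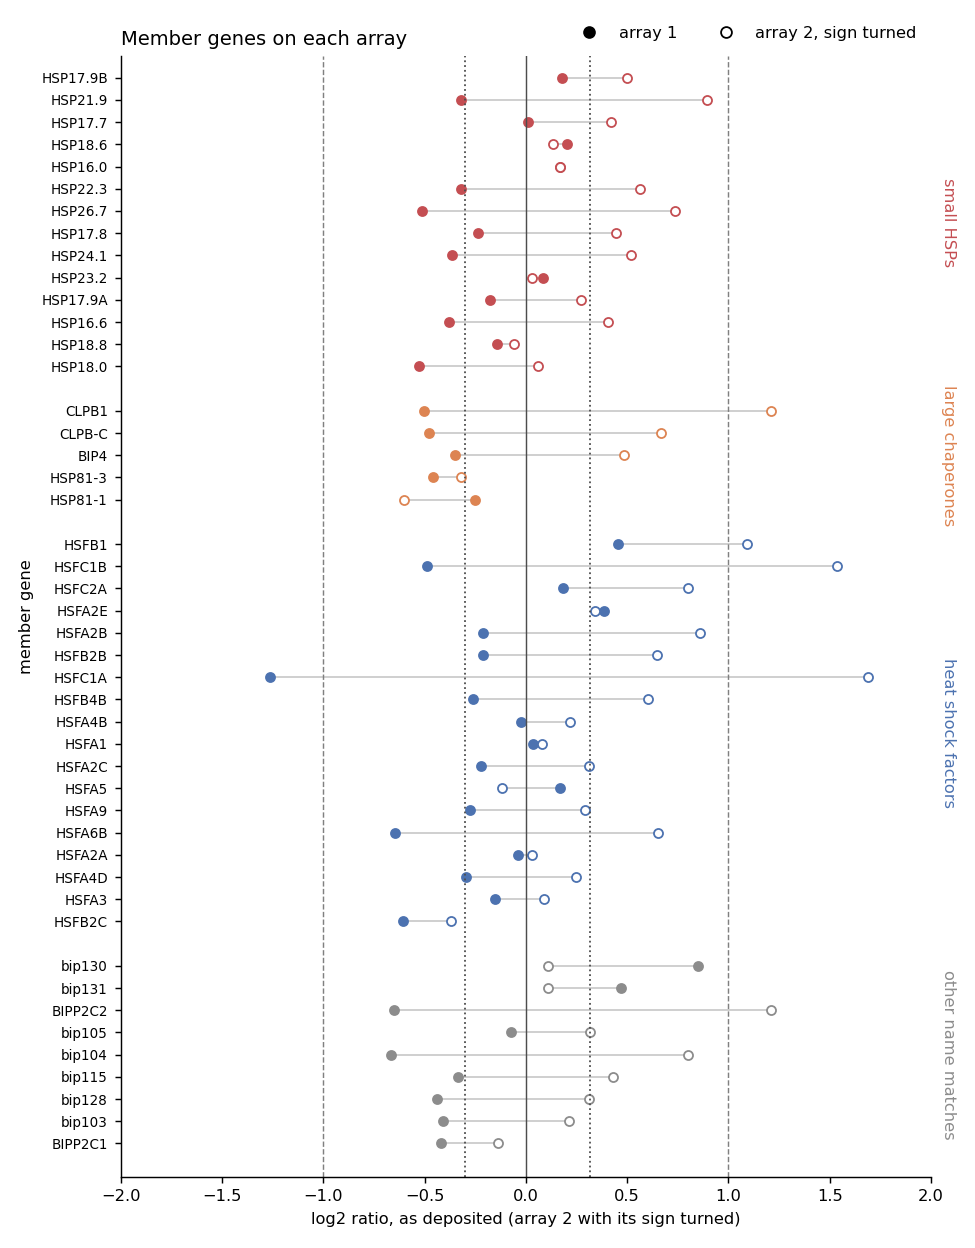
Log2 ratio of each of the 46 member genes (rows, by class) on array 1 (filled) and on array 2 with its sign turned (open), as deposited. Dashed lines mark 2-fold and dotted lines the median spot of each array, at −0.30 on array 1 and on array 2 at −0.32 before turning. No gene has both points beyond the same dashed line.

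Small heat shock proteins mostly had small swap means, under 0.25 in size in 12 of 14 genes, a range that held 78.3% of all genes. Over the 14 genes the median swap mean was 0.11, with a range from −0.23 to 0.34. Of them 12 lay above 0, against 51.7% of all genes, and this slant was not tested. HSP17.9B (LOC4325695) was on a bright spot, at 10.7, with log2 ratios of 0.18 on array 1 and −0.50 on array 2 and a swap mean of 0.34, a size of 1.26-fold. The whole numbers behind these ratios were 1149 over 1015 on array 1 and 2129 over 3004 on array 2. Its place among bright spots was unremarkable: of the 500 features nearest in brightness, itself included, 115 had a swap mean at least as large in size. For such counts each feature was first centred, on each array, on the 500 features nearest to it in brightness. HSP16.6 is the next gene along the chromosome from HSP17.9B. It had −0.38 and −0.41 on a dimmer spot of 4.52, and its swap mean was 0.01.

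The organelle members of the family differed in brightness. HSP26.7, a chloroplast protein, had ratios of 7 over 10 on array 1 and 3 over 5 on array 2, a brightness of 2.51 and a swap mean of 0.11. HSP24.1, of mitochondria, had log2 ratios of −0.36 and −0.52, a swap mean of 0.08. HSP16.0, of peroxisomes, was brighter at 6.41, with 0.17 on array 1 and −0.17 on array 2, so its swap mean was 0.17. As deposited, HSP16.0 had opposite signs on the arrays and the other pair did not. Centred on spots of like brightness, HSP16.0 had 0.33 and 0.003, so its signs were then the same. HSP21.9 reached a swap mean of 0.29, from −0.32 on array 1 and −0.89 on array 2, on a spot of only 2.71 where the ratios were 4 over 5 and 7 over 13. HSP23.2, on a spot of 6.74, had 0.08 and −0.03, a swap mean of 0.06.

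HSP17.7 and HSP17.9A are cytosolic class I proteins. HSP17.7 had 0.01 on array 1 and −0.42 on array 2, so its swap mean was 0.21. HSP17.9A had −0.18 and −0.27, a swap mean of 0.05. Other members are not placed in a class here. Of these, HSP18.6 had 0.20 and −0.14, a swap mean of 0.17. HSP22.3, HSP17.8 and HSP18.8 had swap means of 0.12, 0.10 and −0.10. Of the 14, 6 were at or above the median brightness of all genes.

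HSP18.0 (LOC4325342) was the 1 small heat shock gene with more than 1 feature, and its features went opposite ways. One gave −0.88 on array 1 and 0.54 on array 2, so its swap mean was −0.71. The other gave −0.17 and −0.66, a swap mean of 0.24. Both were of similar brightness, 4.97 and 4.64. Of the 500 features nearest in brightness, 7 had a swap mean as large in size as the first and 84 as large as the second, centred as above. The gene mean of −0.23 therefore describes neither feature, and whether both read the same transcript was not tested.

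The 5 large chaperones lay on both sides of 0. HSP81-1 (LOC4345951) and HSP81-3 (LOC4347405), cytosolic Hsp90 genes, were on bright spots and had negative swap means, while both measured CLPB genes had positive ones. HSP81-1 had −0.25 on array 1 and 0.60 on array 2, so its swap mean was −0.43, a size of 1.34-fold. HSP81-3 had −0.46 and 0.32, a swap mean of −0.39 or 1.31-fold in size. Both genes thus had opposite signs on the arrays, and in the direction opposite to JAZ8 and JAZ7. The whole numbers were 763 over 908 and 4451 over 2936 behind HSP81-1, and the brightness was 10.8 for HSP81-1 and 11.6 for HSP81-3. Bright spots varied more than those of middle brightness, with a spread of swap means of 0.24 in the brightest of 10 groups and 0.15 in the fifth. Here 155 of the 500 features nearest to HSP81-1 and 189 of those nearest to HSP81-3 had a swap mean at least as large in size. The HSP81 genes are close relatives, and whether a probe also reads HSP81-2 is not given in the sources used here.

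CLPB1 (LOC4339343), also named hsp101, the Hsp100 disaggregase that heat tolerance depends on in plants, had −0.50 on array 1 and −1.21 on array 2. Its swap mean was 0.35 on a spot of brightness 4.22, and 47 of the 500 nearest features had one as large in size. CLPB-C had −0.48 and −0.67, a swap mean of 0.10. Neither CLPB gene had opposite signs on the arrays. Centred on spots of like brightness, CLPB1 had −0.04 and −0.67, and CLPB-C had −0.05 and −0.23. BIP4, of the Hsp70 chaperones of the endoplasmic reticulum, had −0.35 and −0.49, a swap mean of 0.07 at a low brightness of 3.10. The median of the 5 genes was 0.07, which is the value of BIP4, and the Hsp90 pair lay far from it.

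**Figure D2:**
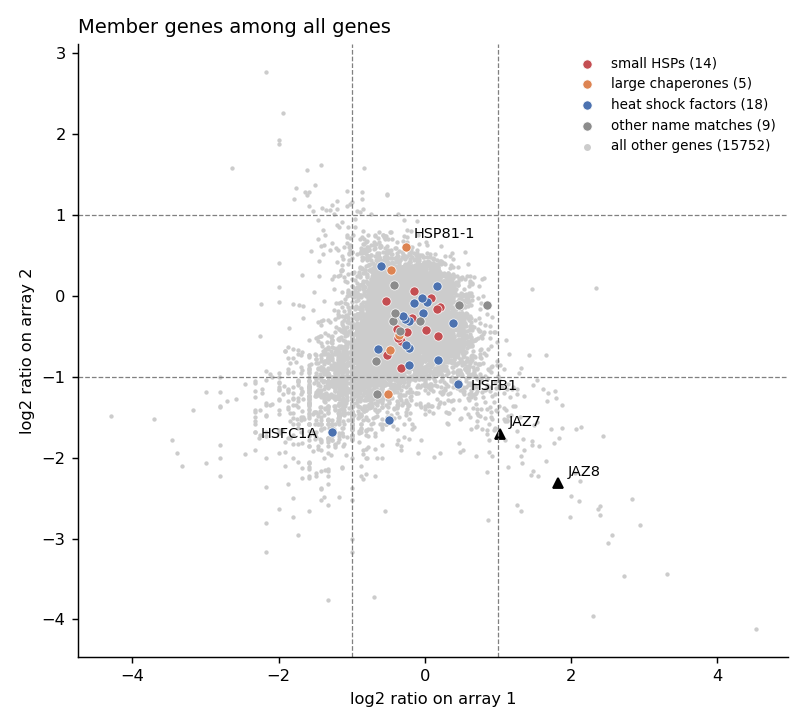
Log2 ratio on array 1 against log2 ratio on array 2 for 15798 genes (grey), with member genes coloured by class and JAZ8 and JAZ7 as triangles. Dashed lines mark 2-fold. No member lies in the lower right field with JAZ8 and JAZ7 or in the upper left, and HSFC1A lies in the lower left.

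Heat shock factors held the largest swap means of all members, and these sat in classes B and C. HSFB1 (LOC4347259), a class B factor, had 0.45 on array 1 and −1.09 on array 2. Its swap mean of 0.77, a size of 1.71-fold, had the same sign as those of JAZ8 and JAZ7. HSFB1 was not on the array 1 side as they were, since its array 1 ratio fell short. With each array centred on spots of like brightness its ratios were 0.67 and −0.86, so both arrays gave a similar size. HSFB1 was the 1 member past 1.5-fold on both arrays after that centring, where 1.79% of all genes passed on the array 1 side. No member passed on the array 2 side, where 0.627% did. Of the 500 features nearest in brightness, 19 had a swap mean at least as large in size. As HSFB1 was the largest of 46 members, this rank is a description only. HSFB2C (LOC4347637), of the same class, had −0.60 on array 1 and 0.37 on array 2. Its swap mean was thus of the other sign, −0.49, and 25 of its 500 nearest features had one as large in size. HSFB2B had −0.21 and −0.65, a swap mean of 0.22, and HSFB4B had −0.26 and −0.60, one of 0.17. Class B thus reached from −0.49 to 0.77, the full range of the members.

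All 3 measured class C factors had positive swap means, as had 51.7% of all genes. HSFC2A had 0.18 on array 1 and −0.80 on array 2, so its swap mean was 0.49. HSFC1B had −0.49 and −1.54, a swap mean of 0.53, at a low brightness of 3.33 where the ratios were 5 over 7 and 10 over 29. HSFC1A had −1.26 and −1.69, a swap mean of 0.21, at 3.48. HSFC2A was the 1 gene of the class with opposite signs on the arrays as deposited. The other pair had ratios below 1 on both arrays. In the second dimmest of 10 groups of spots, where both lie by brightness, the medians were −0.62 on array 1 and −0.69 on array 2, without 228 spots that resemble controls. Centred on spots of like brightness HSFC1A still had −0.68 and −1.04, while HSFC1B had 0.13 and −0.79.

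Class A factors, the activators of the heat response, lay mostly close to 0. Over the 11 genes the median swap mean was 0.03, with a range from −0.03 to 0.36. HSFA1, whose relatives in tomato and Arabidopsis start the heat response, had 0.03 on array 1 and −0.08 on array 2, so its swap mean was 0.06 on a spot of 7.10. HSFA2A had −0.04 and −0.03 on a spot of 8.09, and its swap mean was −0.004. HSFA2E and HSFA2B stood above the rest. HSFA2E had 0.39 on array 1 and −0.34 on array 2, so its swap mean was 0.36, and 76 of its 500 nearest features had one as large in size. HSFA2B had −0.21 and −0.86, a swap mean of 0.32, with 38 of 500 as large. HSFA4D is also named SPL7, the spotted leaf gene whose mutants form lesions. It had −0.30 and −0.25, a swap mean of −0.03. HSFA3, HSFA4B, HSFA5, HSFA6B and HSFA9 had swap means of −0.03, 0.10, 0.03, 0.004 and 0.01.

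The record for HSFA2C also carries the names ARD1 and SIP2, and ARD1 is a dioxygenase of the methionine salvage cycle. Its 2 features disagreed: the brighter, at 6.61, had −0.18 on array 1 and 0.18 on array 2, so its swap mean was −0.18. The dimmer, at 2.43, had −0.26 and −0.81, one of 0.27, from ratios of 5 over 6 and 4 over 7. Which of the genes each feature reads is not known from the sources used here, so the gene mean of 0.05 is not a level of HSFA2C.

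**Figure D3:**
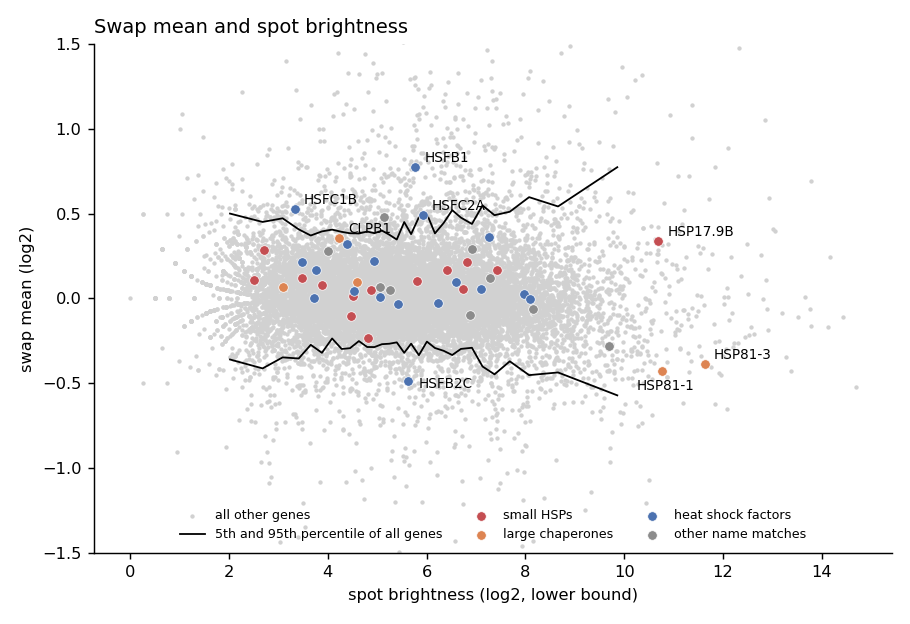
Swap mean (log2) against spot brightness (log2, a lower bound on signal) for all genes (grey, drawn up to 1.5 in size) and for member genes by class. Black lines give the 5th and 95th percentile of all genes in 30 groups of equal size by brightness. Members outside them include HSFB1 at 0.77 and HSFB2C at −0.49. HSP81-1 and HSP81-3 lie at the lower right, at −0.43 and −0.39.

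Opposite signs on the exchanged arrays depended on brightness. Over the 37 genes of the 3 heat shock classes the ratios of the arrays had Pearson's r of 0.31 and Spearman's rho of 0.25 as deposited. Over all genes these were 0.24 and 0.29. Over the 17 of them at or above the median brightness r was −0.66 and rho −0.56. With centring on spots of like brightness r was −0.77 and rho −0.65 for these 17. Over the 7899 genes of that brightness they were −0.59 and −0.30. For all 37, r was −0.04 after that centring, against −0.09 over all genes. Of the 46 members 18 had opposite signs on the arrays after it, against 44.8% of all genes. These are descriptions across genes that share both arrays. A negative r is the pattern of ratios that turn round when dyes are exchanged, and it appeared in the brighter members.

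If both columns are exposed over unexposed, the plain mean of the arrays is the measure instead. Under that reading JAZ8, with 1.82 and −2.32, and JAZ7, with 1.03 and −1.70, would go opposite ways on arrays 1 and 2. Which reading holds was not tested. HSFC1A had the lowest plain mean of the members, −1.48, followed by HSFC1B with −1.01, BIPP2C2 with −0.93 and CLPB1 with −0.86. All 4 were on spots dimmer than the median gene, and centred on spots of like brightness their plain means were −0.86, −0.33, −0.38 and −0.36. The highest were bip130 with 0.37, bip131 with 0.18 and HSP81-1 with 0.17. After that centring these had 0.69, 0.27 and 0.17, and the order changed, with HSP18.8 at 0.46, HSP26.7 at 0.33, HSP21.9 at 0.32 and BIP4 at 0.29. HSP26.7, HSP21.9 and BIP4 were on dim spots of 2.51, 2.71 and 3.10. As deposited their plain means were −0.63, −0.61 and −0.42, and the dimmest of 10 groups of spots had medians of −1 on both arrays. The whole numbers of bip130 were 9 over 5 on array 1 and 179 over 193 on array 2, so its brightness may be understated. HSFB1 had −0.32, near the medians of all spots.

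Other chaperones and folding enzymes, a list set by symbols, were centred slightly on the other side of 0. None of the 28 was on either side at 2-fold, where 0.5% of all genes lay for array 1 and 0.165% for array 2. PDIL1-3 was lower on both arrays, against 3.85% of all genes. It was on a dim spot of 2.17, and the dimmest of 10 groups of spots had medians of −1 on both arrays. The median swap mean of the 28 genes was −0.02, and 11 lay above 0, against 51.7% of all genes. Of them, 4 came in by names that start with TF and belong to transcription factors, and the median of the other 24 was −0.05. The largest in size were PDIL1-4, a protein disulfide isomerase, at −0.48, the DnaJ-type cochaperone DJC27 at 0.43, and CLPD1 at −0.37. The measured CLPC and CLPD genes, Hsp100 relatives of CLPB, had swap means between −0.37 and 0.00, with CLPD2 at −0.32, CLPC2 at −0.27 and CLPC1 at −0.12. Both CLPB genes, at 0.35 and 0.10, were above all 5 of these. The ratios of both CLPB genes were below 1 on both arrays, as were those of CLPC2 and CLPC3.

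**Figure D4:**
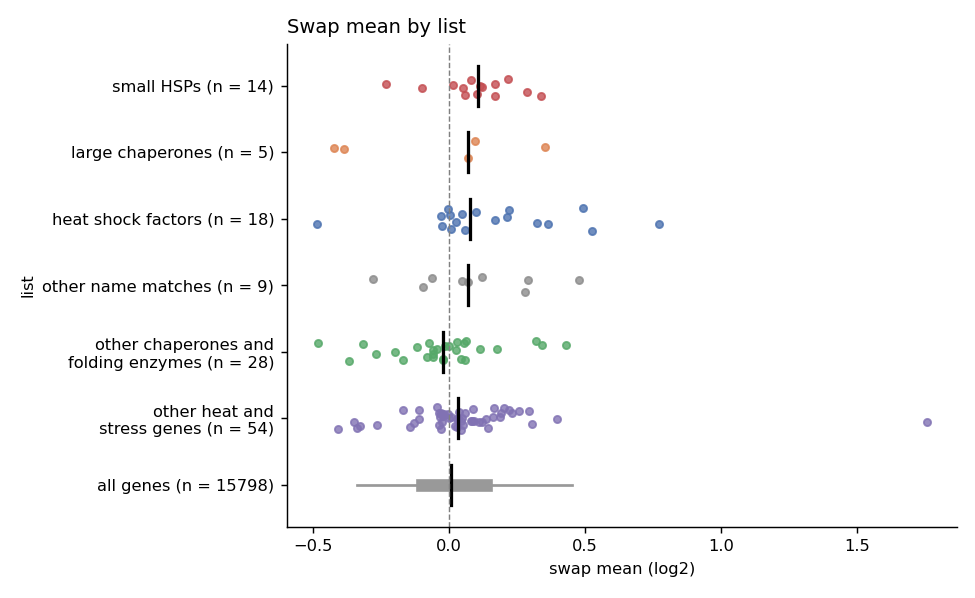
Swap mean (log2) of each gene (points) by list, with the median as a black line. All genes are shown by a thick bar (middle 50%) and a thin line (5th to 95th percentile). The medians of the small heat shock proteins, large chaperones and heat shock factors are 0.11, 0.07 and 0.08, against 0.01 over all genes.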

How the data were processed

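RNA of exposed and unexposed seedlings was compared on 2 two-colour arrays. Images were read on a GenePix scanner and values normalized in GeneSpring version 4, per the labels. How background was handled, and any filter, is not given in the sources used here. All values deposited are log10 ratios by the authors, with medians of −0.0902 and −0.0954. They were multiplied to log2 and otherwise used as deposited. Whole numbers behind a value were taken as its simplest fraction, to within 6e-10 (log10).

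Spot numbers were paired with the annotation through a grid of 215 lines of 105 spots, found from these data in earlier work. Under it 0 of 228 control-like spots (below −2.2 on both arrays, brightness above 4.5) fell on features with 1 gene, against 193 by spot number. The grid and these spots come from the same data, so this count is not an independent check of the grid. Names come from the RefSeq table of assembly ASM3414082v1. A gene is the mean of its features. Members and lists were chosen with earlier results of these data known.

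Every member was to be named, with both ratios for those past 2-fold on a side and for the 6 largest swap means of each class. Context lists give their 3 largest, and JAZ8 and JAZ7 were added as known response genes. With 1 replicate nothing was tested, and the number of arrays limits precision. Alternatives were centring, scaling, brightness, probe choice, single arrays, spot numbers and thresholds. Scripts were tested on simulated data (Python 3.11.15, numpy 2.4.6, pandas 2.3.3).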

Additional observations from a re-analysis of the deposited data

How the results depend on the processing

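Counts on the array 1 and array 2 sides were 0 when centred, scaled, limited to bright features, taken from the brightest feature, or set at 1.5-fold or 3-fold. Names by spot number gave 2 on the array 1 side. A single array cannot tell a side from a ratio low on both arrays: 5 members had −1 or less on array 2 and 1 had it on array 1. The 1 gene lower on both arrays became 0 centred, scaled, at 3-fold, among bright features and after centring by brightness, 4 at 1.5-fold and 2 by spot number. Median ratios of small heat shock proteins, large chaperones and factors were −0.21, −0.46 and −0.21 on array 1 alone. On array 2 alone they were −0.41, −0.49 and −0.33, or 0.41, 0.49 and 0.33 with the sign turned. All 3 classes were thus below 0 on both arrays before turning, since an array alone keeps its offset. Among bright features the median swap means were 0.17, −0.41 and 0.03, with only the Hsp90 genes left of the large chaperones. By spot number they were −0.0216, 0.01 and 0.03. Centring by brightness gave the large chaperones 0.01. The cause of these moves was not tested. The correlation of 0.31 became −0.0397 centred by brightness, −0.66 in brighter members and −0.77 with both. Centring by brightness, leaving out single members and the brightness split of the correlation were chosen after seeing the data. The planned list by gene descriptions was not run, since the tables used hold none. No paired analysis was possible because both arrays carry the same replicate number.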

Other observations

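The 9 genes caught by the letters BIP had a median swap mean of 0.07, against 0.09 over all members, and none was past 2-fold on a side. bip130 had 0.85 on array 1 and −0.11 on array 2, so its swap mean was 0.48, and bip131 had 0.47 and −0.11, one of 0.29. BIPP2C1, a protein phosphatase 2C, had −0.42 on array 1 and 0.14 on array 2 as the mean of 2 features, whose swap means were −0.05 and −0.51. BIPP2C2 had −0.65 and −1.21, a swap mean of 0.28. bip104, also named SSRP1-A, had −0.67 and −0.80, and bip105, also named OsC3H13, had −0.07 and −0.32. bip103 had −0.41 and −0.21, a swap mean of −0.10. The swap means of bip115 and bip128 were 0.05 and −0.06.

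Other heat and stress genes, set by symbols, numbered 54 and had a median of 0.03, and 10 of them are SAPK kinases caught by the letters SAP. The catalase catA was the 1 gene on the array 1 side, where 0.5% of all genes lay, with 1.88 and −1.64, a swap mean of 1.76. Far behind it in size were DREB2C at −0.41, on a dim spot of 3.11, and SAP17 at 0.40. DREB2C and SAPK1, the latter on a dim spot of 2.95, were the 2 genes lower on both arrays, against 3.85% of all genes. DREB2A, a factor of drought and heat responses, had 0.24 and −0.23, a swap mean of 0.23. The 7 ascorbate peroxidases had a median of 0.01, with APX1 at −0.35 and APX6 at 0.26. The 3 measured RAB16 genes, dehydrins that abscisic acid induces, had swap means between 0.03 and 0.20.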
